A study of Mus musculus with 18 samples.

Results

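The genes described here build cholesterol and fatty acids and control that synthesis. A list of 37 mouse genes was read by symbol from a table of 15137 genes measured in naive CD4+ T cells, and 36 of them had a row. Fads2 was not analysed here. The list held 7 genes of the mevalonate arm, 12 of the sterol arm, 5 that control the SREBP transcription factors, 1 sterol transfer gene, 8 genes of fatty acid synthesis with a row, and 3 genes of the LXR and efflux branch. All 36 passed the minimum level for testing, a linear value of 10 reached by 3 of the 18 libraries. Their deposited values, on a log2 scale, ran between 4.47 and 11.3.

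RNA was sequenced in 6 groups of 3 libraries. Creld1 cKO mice carried a conditional deletion of Creld1, a gene for a membrane protein, made with CD4-Cre, a recombinase active in developing and mature T cells; both genotypes were on the C57BL/6J background, and the labels do not say whether control mice carried Cre. Naive CD4+ T cells were sorted from spleen by surface markers, as CD3+ and CD4+ cells without CD25 and CD44 among other criteria. For each genotype the stimulated group spent 8 h in culture with antibodies to CD3 and CD28 at 1 µg/ml, which engage the T cell receptor complex and a co-stimulatory receptor. The unstimulated group spent 8 h in the same medium, which held fetal calf serum, without antibodies, and the fresh group was not cultured. The 3 libraries of a group carry the same mouse label, so it is not known whether they came from separate mice, and p-values measure the spread between libraries, which may be technical.

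Sterol synthesis in animals starts in the mevalonate arm, which turns acetyl-CoA into farnesyl diphosphate. The sterol arm then closes the ring of lanosterol and trims it to cholesterol. When membrane sterol falls, Scap carries the Srebf2 and Srebf1 products to the Golgi for cleavage, and the freed factors turn on synthesis genes. The Insig proteins hold Scap back when sterol is high. LXR receptors sense oxysterols and turn on exporters such as Abca1 and Abcg1. In T cells, receptor signalling is known to engage the SREBP branch, since dividing cells need membrane.

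Promoters of 5 members that passed a test below are shown, as the 250 bases before the RefSeq start of each gene on GRCm38.p6, read along the strand of the gene. The windows are chr5:4104698-4104947 on the minus strand for Cyp51, chr13:8885356-8885605 on the plus strand for Idi1, chr13:119690101-119690350 on the plus strand for Hmgcs1, chr5:28071162-28071411 on the plus strand for Insig1, and chr1:169969206-169969455 on the minus strand for Hsd17b7. Capitals mark 3 motifs on either strand: TCACNCCAC, a form of the sterol regulatory element, the CCAAT box and GGGCGG, a GC box. On the opposite strand the CCAAT box reads ATTGG and the GC box CCGCCC.
Cyp51: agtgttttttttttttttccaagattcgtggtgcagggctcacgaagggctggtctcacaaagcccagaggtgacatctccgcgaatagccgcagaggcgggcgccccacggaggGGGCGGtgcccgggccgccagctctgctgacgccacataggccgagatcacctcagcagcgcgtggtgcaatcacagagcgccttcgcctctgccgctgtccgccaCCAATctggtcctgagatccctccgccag
Idi1: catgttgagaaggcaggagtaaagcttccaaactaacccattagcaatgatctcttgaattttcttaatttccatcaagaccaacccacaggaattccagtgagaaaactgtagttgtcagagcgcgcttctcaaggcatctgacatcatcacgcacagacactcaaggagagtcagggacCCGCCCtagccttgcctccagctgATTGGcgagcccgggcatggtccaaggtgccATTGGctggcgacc
Hmgcs1: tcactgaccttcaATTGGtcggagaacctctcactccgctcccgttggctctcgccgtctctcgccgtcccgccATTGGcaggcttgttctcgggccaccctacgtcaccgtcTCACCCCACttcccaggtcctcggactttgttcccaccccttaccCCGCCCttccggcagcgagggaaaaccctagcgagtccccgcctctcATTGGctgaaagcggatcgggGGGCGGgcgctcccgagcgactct
Insig1: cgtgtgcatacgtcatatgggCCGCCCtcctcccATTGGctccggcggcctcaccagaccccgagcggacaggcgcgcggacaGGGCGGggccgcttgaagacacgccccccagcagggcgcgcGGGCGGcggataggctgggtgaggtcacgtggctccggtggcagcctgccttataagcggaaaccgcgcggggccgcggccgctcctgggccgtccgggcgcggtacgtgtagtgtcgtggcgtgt
Hsd17b7: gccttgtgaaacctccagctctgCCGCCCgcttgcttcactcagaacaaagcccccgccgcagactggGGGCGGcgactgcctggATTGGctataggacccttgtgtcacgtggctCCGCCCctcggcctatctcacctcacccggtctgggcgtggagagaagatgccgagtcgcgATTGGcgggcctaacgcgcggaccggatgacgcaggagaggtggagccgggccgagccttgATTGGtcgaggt
Hmgcs1, for the synthase that makes HMG-CoA, held the TCACNCCAC form, 137 to 129 bases before the start, beside 3 CCAAT boxes and 2 GC boxes. The Hsd17b7 window had 3 of each of the other 2 motifs, while Idi1 had 2 CCAAT boxes and 1 GC box. Cyp51 showed 1 of each, and Insig1 had 1 CCAAT box and 3 GC boxes. RefSeq gave windows for 29 members, and 24 of these had a single window. Among the 24, the TCACNCCAC form was in 1, against 1.05% of 32851 mouse promoter windows of the same length. A CCAAT box was in 18 of the 24, against 33.8% of all windows, and 2 or more CCAAT boxes in 11, against 10.1%. GGGCGG was in 19 of the 24, against 32.7%. All windows include genes with several windows and were not limited to genes measured here, unlike the 24. These are matches of letters only.

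Markers of the sorted cells were measured in every library. All 9 naive CD4 T cell markers were above the minimum, with Cd4 at a mean of 12.7 on the log2 scale. Above the minimum were 2 of 8 measured B cell markers, 4 of 10 CD8 T and NK markers, 3 of 7 myeloid markers and 0 of 3 red cell markers. The highest means in these lists were 4.29 for Cd79a, 6.41 for Cd8b1 and 4.68 for Cd68, while Cd8a, Csf1r and Adgre1 were below the minimum. Of the regulatory T cell markers, 6 of 6 were above it although CD25+ cells were gated out. Their summed linear level was 1131 to 1360 in cKO stimulated, 899 to 1286 in control stimulated, 786 to 866 in cKO unstimulated, 895 to 1054 in control unstimulated, 1036 to 1500 in cKO fresh and 1212 to 1497 in control fresh libraries. Creld1 itself had log2 values of 4.14 to 4.62 in cKO and 4.41 to 5.10 in control stimulated cells. Its values were 3.82 to 4.33 in cKO and 4.81 to 5.40 in control unstimulated cells. Fresh cells had 3.70 to 4.40 in cKO and 4.33 to 4.85 in control libraries. The genotypes were separate in unstimulated culture, as for 52.1% of all tested genes, and overlapped in the other 2 conditions. Creld1 did not pass between genotypes in unstimulated culture, where 0 of 10877 tested genes passed. Egr1, Egr2 and Egr3, early genes of receptor signalling, rose with stimulation in both genotypes, by 1.86, 1.38 and 1.97 in cKO cells and 1.25, 1.14 and 1.46 in control cells (limma adjusted p at most 0.0188). They were the 3 of 9 tested activation markers that passed in cKO cells, and Irf4 also passed in control cells, while Il2 was below the minimum in every library. The summed linear level of the 10 activation markers in stimulated libraries, 6464 to 9321 in cKO and 4794 to 8169 in control, overlapped that of fresh libraries, given with the culture comparison. These are bulk samples, in which fewer cells of a type and less RNA per cell cannot be told apart.

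Levels of the 36 genes differed widely. Per kilobase of the longest transcript, the highest mean log2 value over the 18 libraries was 9.25 for Lbr, which is both a sterol reductase and a receptor of the nuclear lamina. It was followed by 8.93 for the fatty acid elongase gene Elovl5, 8.58 for Acly, which makes cytosolic acetyl-CoA, 8.19 for Srebf2 and 8.01 for Insig1. The lowest were 3.94 for the exporter gene Abca1, 4.08 for Hsd17b7 and 4.12 for the mevalonate kinase gene Mvk. Among group means, the distance between highest and lowest on the log2 scale was 1.35 for Fasn, the fatty acid synthase, 1.16 for Srebf1, 1.10 for Mvk and 1.02 for Scd2, a stearoyl-CoA desaturase. The SD within groups was 0.60 for Fasn but 0.09 for Scd2. At the other end, the group means of the acetyl-CoA carboxylase gene Acaca lay within 0.19 and those of Acly and Acss2, both sources of acetyl-CoA, within 0.21 each.

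**Figure D1:**
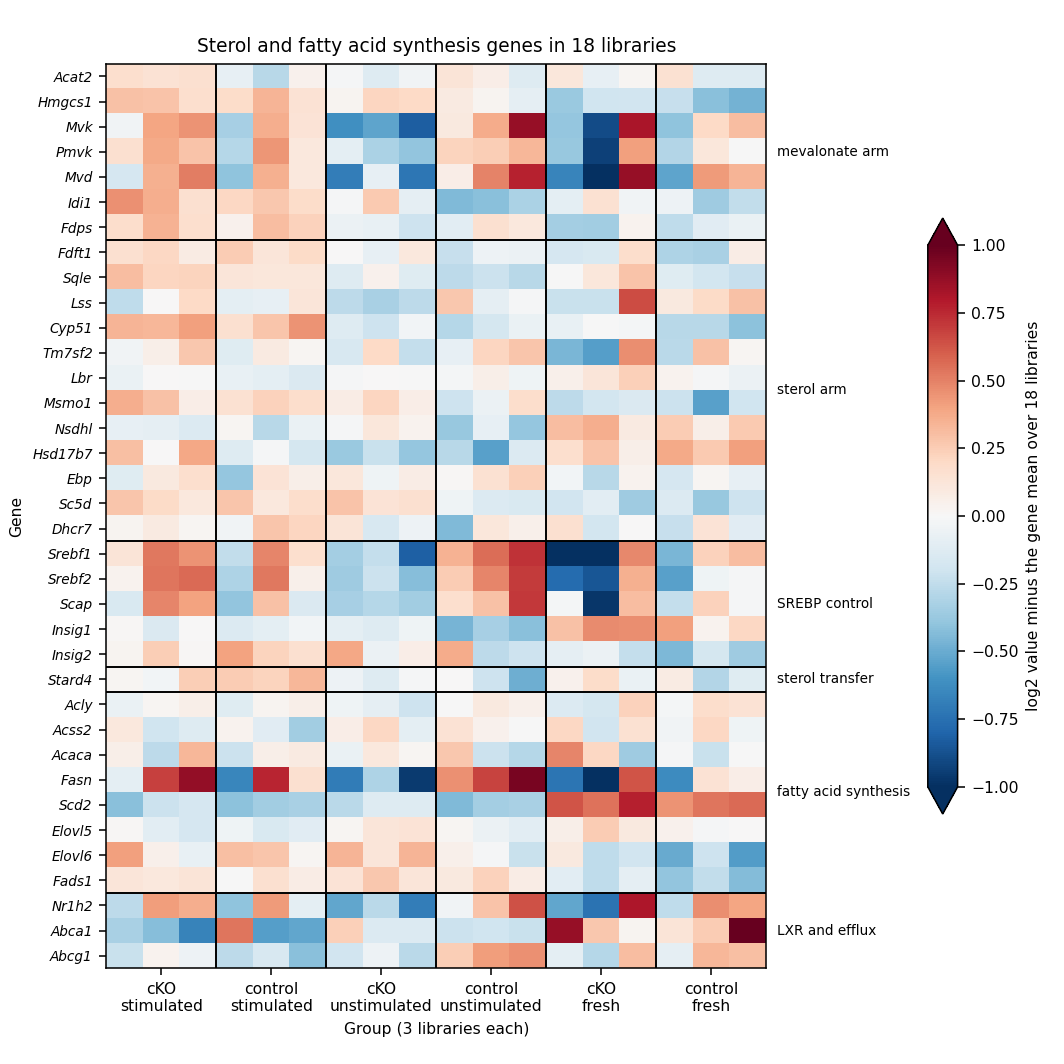
Log2 value of each of 36 genes (rows, by role) in each of 18 libraries (columns, by group) minus the mean of the gene over all libraries; colours end at 1 in either direction. Scd2 and Insig1 were high in the 6 fresh libraries, Cyp51 and Idi1 were high in the 6 stimulated libraries, and Mvk, Pmvk, Mvd, Srebf1, Srebf2, Scap, Fasn and Nr1h2 varied between libraries of the same group.

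The first comparison asked what 8 h of receptor stimulation added to 8 h of culture. Few members moved. Cyp51, the lanosterol demethylase at the start of the sterol arm's trimming steps, rose in both genotypes by about the same amount, and Idi1, the isomerase that prepares the building block of Fdps, rose in control cells. In cKO cells 1 of 36 members was called higher and 0 lower, beside 0.285% of the 10877 tested genes, 0.276% higher and 0.00919% lower. In control cells 2 were higher and 0 lower, beside 0.349% of tested genes, 0.313% higher and 0.0368% lower. Without adjustment, 11 members in cKO and 9 in control cells had a p below 0.05, against 23.1% and 11.3% of all genes. The libraries were separate for 16 members in cKO cells, 13 of them above, and for 10 in control cells, 8 above, against 42.3% and 20.5% of all genes. The median difference of the 36 members was 0.13 in cKO cells and -0.02 in control cells, against 0.01 and -0.02 for all tested genes. The 8 members of high GC content, named below, had medians of 0.72 in cKO and -0.40 in control cells. Medians of the other 28 were 0.08 and 0.16. Across the 36, the Pearson correlation of the difference with transcript GC content was 0.66 in cKO and -0.77 in control cells. Over all tested genes with a known GC content it was 0.66 and -0.60. The part of GC content in the members' medians was not tested.

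Cyp51 had log2 values of 8.87, 8.86 and 8.94 in stimulated cKO libraries, against 8.41, 8.32 and 8.51 in unstimulated cKO libraries. Its values were 8.69, 8.81 and 8.98 in stimulated control libraries, against 8.24, 8.36 and 8.46 in unstimulated control libraries. Every stimulated library was above every unstimulated library of its genotype. The rise was 0.48 ± 0.09 (SE, n = 3 each), or 1.39-fold, in cKO cells (limma adjusted p = 0.0246). In control cells it was 0.47 ± 0.09, again 1.39-fold (limma adjusted p = 0.0280). Fresh cells held 8.45, 8.53 and 8.51 in cKO and 8.26, 8.26 and 8.12 in control libraries, below all stimulated libraries of either genotype.

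Idi1 showed 8.34, 8.40 and 8.31 in stimulated control libraries, against 7.69, 7.71 and 7.81 in unstimulated control libraries, with no overlap. The rise was 0.61 ± 0.11, or 1.53-fold (limma adjusted p = 0.0280). In cKO cells the values were 8.59, 8.49 and 8.29 with stimulation, against 8.12, 8.39 and 8.04 without, and these ranges overlapped. The difference in cKO cells was 0.27 ± 0.11 and did not pass (limma adjusted p = 0.201). Unstimulated cKO libraries were all above unstimulated control libraries for this gene, and stimulated libraries of the 2 genotypes overlapped. The rise in control cells and that genotype difference share the unstimulated control libraries and are not independent. The stimulation difference of Idi1 in cKO minus that in control cells was -0.34 and did not pass.

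In the mevalonate arm, the smallest p in cKO cells was that of Fdps, the farnesyl diphosphate synthase, at 0.34 ± 0.11 (limma adjusted p = 0.192). Among the genes that control SREBP, Srebf2 stood at 0.71 ± 0.28 in cKO cells (0.200) and Insig1 at 0.32 ± 0.09 in control cells (0.171). The sterol transfer gene Stard4 differed by 0.14 ± 0.12 in cKO cells (0.438) and 0.50 ± 0.12 in control cells (0.116). Its 3 stimulated control libraries, at 8.66, 8.63 and 8.74, were all above the unstimulated ones at 8.41, 8.20 and 7.92. In fatty acid synthesis the smallest p belonged to Fasn in cKO cells, at 1.15 ± 0.43 (0.197), and to the elongase gene Elovl6 in control cells, at 0.26 ± 0.14 (0.479). Values in brackets are limma adjusted p-values, and none of these members passed. With the GC slope of each library in the model, described below, the cKO values were 0.24 for Fasn, 0.13 for Srebf2 and 0.16 for Fdps.

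Abcg1 had the smallest p of the efflux branch in control cells and did not pass. The gene, which encodes an exporter of cholesterol to lipoprotein particles, had 8.45, 8.56 and 8.30 in stimulated control libraries, against 8.96, 9.14 and 9.18 in unstimulated control libraries. The groups did not overlap, and the difference was -0.66 ± 0.14 (limma adjusted p = 0.0769). In cKO cells the values were 8.49, 8.75 and 8.67 with stimulation, against 8.53, 8.67 and 8.45 without, and they overlapped. Nr1h2, which encodes LXR beta, had the smallest p of the branch in cKO cells, at 0.66 ± 0.34 (limma adjusted p = 0.234) and at -0.069 with the GC slope.

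These calls depended on single libraries. The Cyp51 call in cKO cells was lost without any 1 of its 6 libraries, with scaling of the TMM type and with quantile normalization, and its value stayed between 0.42 and 0.52 over all settings tried. Idi1 in control cells stayed between 0.59 and 0.65 with a library left out, and Cyp51 between 0.40 and 0.54. The count there was 0 without control stimulated replicate 2 or 3 or control unstimulated replicate 1 or 2, 1 without control unstimulated replicate 3 or cKO unstimulated replicate 1, and 4 without cKO fresh replicate 3, beside 1.14% of tested genes. That library, left out, gave 5 in cKO cells, beside 3.09%. It is in neither stimulation comparison, so the differences were unchanged and only the shared estimate of the spread moved. With only the 6 libraries compared in the fit, 13 members passed in cKO cells, beside 21.6% of tested genes, and 0 in control cells, beside 0.0644%. When the GC slope of each library was added to the model, 5 members were called in control cells, beside 2.95% of tested genes: Idi1 at 0.58, Sqle at 0.39, Cyp51 at 0.48, Stard4 at 0.41 and Abcg1 at -0.48 (limma adjusted p between 8.51e-04 and 0.0342). The GC slope is how steeply the gene-centred log2 values of a library climb with transcript GC content, per SD of that content. It was computed from the same expression values that are tested, so differences that follow GC content shrink by construction when it is added.

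**Figure D2:**
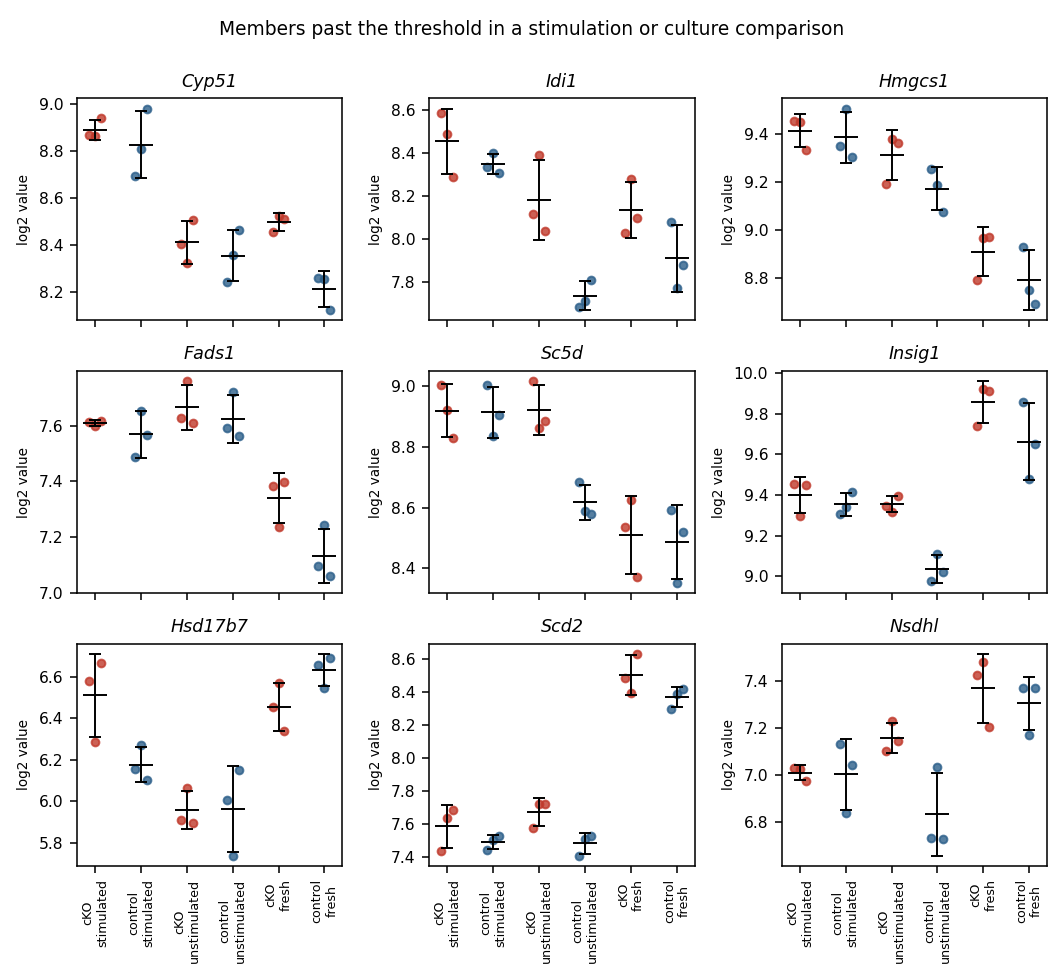
Log2 value of 9 genes that passed a stimulation or culture comparison, in each library (points; red, cKO; blue, control), with the mean and SD of each group of 3 in black; each panel has its own vertical range. Cyp51 was highest in the stimulated groups, Scd2, Insig1 and Hsd17b7 were lower in unstimulated culture than in fresh cells, and Hmgcs1 and Fads1 were higher.

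The second comparison set unstimulated culture against fresh cells, to show what 8 h of culture alone did. Here more members passed, and in both directions. Hmgcs1 and the fatty acid desaturase gene Fads1 rose in both genotypes, while Scd2, Insig1 and Hsd17b7 fell in both. Sc5d, the sterol desaturase, passed as a rise in cKO cells, and Nsdhl, a partner of Hsd17b7 in removing methyl groups from sterols, passed as a fall in control cells. In cKO cells 3 members were higher and 3 lower, beside 22.1% of tested genes, 10.7% higher and 11.4% lower. In control cells 2 were higher and 4 lower, beside 29% of tested genes, 14.9% higher and 14.1% lower. Without adjustment 10 members had a p below 0.05 in each genotype, against 34% of all genes in cKO and 41% in control cells. Unstimulated and fresh libraries were separate for 10 members in cKO and 11 in control cells, against 31.9% and 48.6% of all genes. The members' share called was 6 of 36 in each genotype, below the share of all genes, and their median differences were -0.08 in cKO and 0.11 in control cells, against -0.02 and 0.04 for all genes.

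The culture comparisons of the 2 genotypes use different libraries. Of the 6 members called in each, 5 were called in both, with the same direction, which is 83.3% of each list. Over all tested genes, 1800 were called in both, 74.8% of those called in cKO cells and 57.1% of those called in control cells. Both comparisons share their unstimulated libraries with the stimulation comparisons above, so that values of 1 gene in the 2 comparisons are not independent.

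Scd2 had the largest difference of the called members. It had log2 values of 7.58, 7.72 and 7.72 in unstimulated cKO libraries, against 8.48, 8.39 and 8.63 in fresh cKO libraries. In control cells it had 7.41, 7.51 and 7.53 in unstimulated libraries, against 8.30, 8.39 and 8.42 in fresh libraries. The cultured and fresh libraries did not overlap in either genotype. It fell by 0.83 ± 0.09 (SE) on the log2 scale in cKO cells, to 0.563 of the fresh level (limma adjusted p = 9.92e-06). In control cells it fell by 0.89 ± 0.09, to 0.541 of the fresh level (limma adjusted p = 4.23e-06). Stimulated libraries, at 7.43, 7.64 and 7.68 in cKO and 7.44, 7.50 and 7.52 in control cells, overlapped the unstimulated ones and were below all fresh libraries.

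Insig1, which retains Scap in the endoplasmic reticulum, had 9.35, 9.32 and 9.40 in unstimulated cKO libraries, against 9.74, 9.92 and 9.91 in fresh ones. Control cells showed 8.98, 9.11 and 9.02 in unstimulated libraries, against 9.86, 9.48 and 9.65 in fresh libraries. All cultured libraries were below all fresh libraries, and the unstimulated control libraries were the lowest of the 18. The difference was -0.50 ± 0.09 in cKO cells (limma adjusted p = 8.40e-04). In control cells the difference was -0.63 ± 0.09 (limma adjusted p = 1.17e-04).

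Hsd17b7 had 5.91, 6.06 and 5.90 in unstimulated cKO libraries, against 6.45, 6.57 and 6.34 in fresh cKO libraries. Control cells had 6.00, 5.74 and 6.15 in unstimulated libraries, against 6.66, 6.55 and 6.69 in fresh libraries. Unstimulated libraries were below fresh ones in both genotypes, with differences of -0.50 ± 0.13 in cKO (limma adjusted p = 0.00991) and -0.67 ± 0.13 in control cells (0.00114). Stimulated libraries lay between 6.29 and 6.67 in cKO cells, overlapping the fresh ones. In control cells they lay between 6.10 and 6.27, below the fresh ones. Nsdhl, which acts beside Hsd17b7, had 6.74, 7.04 and 6.73 in unstimulated control libraries, against 7.37, 7.17 and 7.37 in fresh ones, again without overlap, and a difference of -0.47 ± 0.11 (limma adjusted p = 0.00605). In cKO cells Nsdhl had a lower mean in unstimulated than in fresh libraries, 7.16 against 7.37. Their ranges, 7.11 to 7.23 and 7.20 to 7.48, overlapped, and it did not pass.

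The called rises lay between 0.33 and 0.49. Hmgcs1 had 9.19, 9.38 and 9.36 in unstimulated cKO libraries, against 8.79, 8.97 and 8.97 in fresh ones. It had 9.25, 9.19 and 9.08 in unstimulated control libraries, against 8.93, 8.75 and 8.69 in fresh ones. No cultured library was as low as a fresh library of its genotype. The rise was 0.40 ± 0.09 in cKO (limma adjusted p = 0.00412) and 0.38 ± 0.09 in control cells (0.00505), or 1.32-fold and 1.30-fold. Stimulated libraries lay between 9.31 and 9.51 for this gene.

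Fads1, which adds a double bond to polyunsaturated fatty acids, had 7.63, 7.76 and 7.61 in unstimulated cKO libraries, against 7.38, 7.24 and 7.40 in fresh ones. Control cells had 7.59, 7.72 and 7.56 in unstimulated libraries, against 7.10, 7.24 and 7.06 in fresh libraries. The ranges were separate in both genotypes. The rise was 0.33 ± 0.09 in cKO (limma adjusted p = 0.0137) and 0.49 ± 0.09 in control cells (7.05e-04). In cKO cells the Fads1 call was lost without unstimulated replicate 2 (0.28, limma adjusted p = 0.0670) or fresh replicate 2 (0.27, 0.0546). Sc5d had 9.02, 8.86 and 8.89 in unstimulated cKO libraries, against 8.53, 8.62 and 8.37 in fresh ones, a separate pair of ranges and a rise of 0.41 ± 0.09 (limma adjusted p = 0.00337). In control cells Sc5d differed by 0.13 ± 0.09 and did not pass (limma adjusted p = 0.279).

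Stard4, the only member of its role, and Abca1, which had the smallest p of its role, did not pass. Stard4 differed by -0.12 ± 0.12 in both genotypes (limma adjusted p = 0.561 in cKO and 0.490 in control cells). Abca1, which loads cholesterol onto apolipoproteins, differed by -0.41 ± 0.29 in cKO cells (limma adjusted p = 0.354) and -0.70 ± 0.29 in control cells (0.0788).

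Adding the GC slope raised the counts to 13 in cKO cells, beside 45.4% of tested genes, and 11 in control cells, beside 42.9%, and all members called without it kept their call. When only the 6 libraries compared were fitted, 2 members, Insig1 and Scd2, passed in cKO cells, beside 7.46% of tested genes. Summed linear levels of the 10 activation markers were 3242 to 3610 in cKO and 3031 to 4533 in control unstimulated libraries, against 6048 to 8535 in cKO and 6420 to 7279 in control fresh libraries. Their part in these results was not tested.

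**Figure D3:**
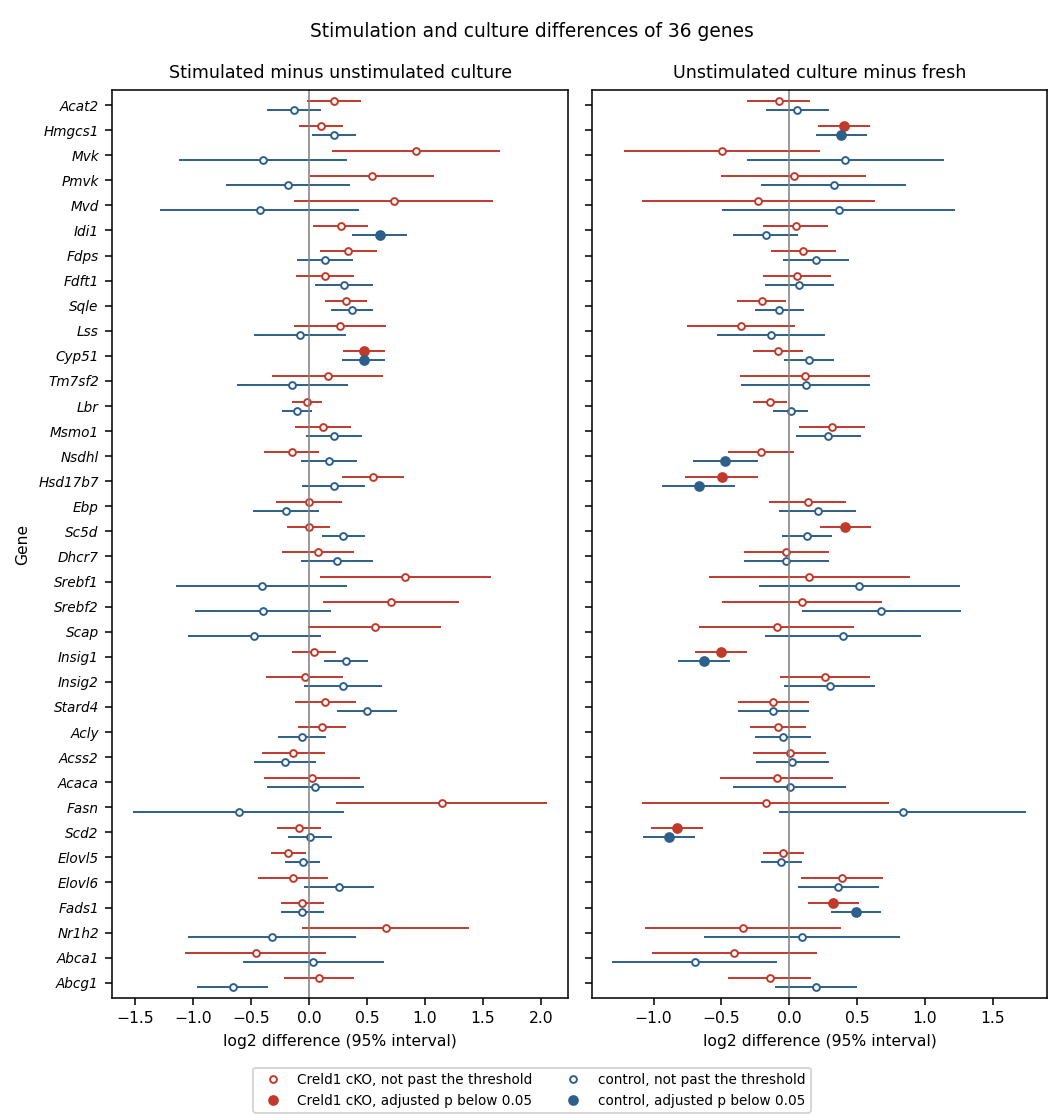
Difference in log2 value of each of 36 genes for stimulated minus unstimulated culture (left) and unstimulated culture minus fresh cells (right), with 95% intervals from limma, in cKO (red) and control (blue) cells; filled points had an adjusted p below 0.05. Cyp51 was past the threshold in both genotypes on the left, and Hmgcs1, Hsd17b7, Insig1, Scd2 and Fads1 in both on the right.

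The third comparison was that of the genotypes, in each condition. No member passed in any condition in the fit of group means. In stimulated cells 0 of 36 passed, beside 0% of all tested genes, 2 had an unadjusted p below 0.05, against 1.47% of all genes, and 4 had separate genotypes, against 6.19%. In unstimulated cells 0 passed, beside 0%, and 15 had an unadjusted p below 0.05, against 33.2%. In fresh cells 0 passed, beside 0.00919%, and 6 had such a p, against 3.94%. With the difference averaged over conditions 0 passed, beside 0.0184%, and 11 had such a p, against 8.28%. Median differences of the members were 0.07, 0.02, 0.04 and 0.05 in that order, against 0.01, -0.01, 0.00 and 0.00 for all genes.

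In unstimulated culture, Idi1 had 8.12, 8.39 and 8.04 in cKO libraries, against 7.69, 7.71 and 7.81 in control libraries. Insig1 had 9.35, 9.32 and 9.40 in cKO, against 8.98, 9.11 and 9.02 in control libraries. For both genes, all cKO libraries were above all control libraries. The genotypes were separate in this condition for 20 members, 9 above and 11 below, against 52.1% of all tested genes. The differences were 0.44 ± 0.11 for Idi1 and 0.32 ± 0.09 for Insig1, and that of Sc5d was 0.31 ± 0.09. Abcg1 was lower in every cKO library, at 8.53, 8.67 and 8.45, than in any control library, at 8.96, 9.14 and 9.18, with a difference of -0.54 ± 0.14. Each of these 4 had a limma adjusted p of 0.103. The unstimulated libraries used here are also those of the stimulation and culture comparisons above, so values of 1 gene in these comparisons are not independent.

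In unstimulated culture 11 members, beside 3115 of 10877 tested genes, were lower in each cKO library than in each control library. Among these 11 were 8 members of high GC content. They were Mvk, Pmvk and Mvd, the kinases and decarboxylase of the mevalonate arm, Srebf1, Srebf2 and Scap of the SREBP system, Fasn, and Nr1h2. Their transcripts have a GC content of 56.3% to 60.6%, above the 41.9% to 52.8% of the other 28 members, and the bound of 55% between them was chosen after the values were seen. Fasn had 8.90, 9.28 and 8.64 in cKO unstimulated libraries, against 10.05, 10.28 and 10.55 in control unstimulated libraries. Srebf2 had 10.18, 10.32 and 10.11 in cKO, against 10.79, 11.02 and 11.23 in control libraries. Mvk had 4.76, 4.84 and 4.55 in cKO, against 5.47, 5.75 and 6.24 in control libraries.

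Differences of the 8 ran between -1.35 ± 0.43 for Fasn and -0.54 ± 0.25 for Pmvk, with a median of -0.88, and the median of the other 28 was 0.11. None of the 8 passed (limma adjusted p between 0.103 and 0.150). The GC slope was -0.19 to -0.07 in cKO unstimulated libraries, against 0.06 to 0.24 in control unstimulated libraries, and mitochondrial transcripts took 3.98% to 4.42% of the linear sum in cKO, against 2.97% to 3.62% in control. The part of the mitochondrial share was not tested. With the GC slope in the model the 8 differences lay between -0.20 and 0.15, with a median of -0.06, while the median of the other 28 was 0.10. The slope was taken from these same values, so differences that follow GC content shrink in this model by construction. It was also separate between the genotypes in this condition, so GC content and genotype cannot be told apart here. In that model Idi1 differed by 0.38 ± 0.12, Insig1 by 0.27 ± 0.09, Abcg1 by -0.21 ± 0.08 and Sc5d by 0.14 ± 0.07, and none passed (limma adjusted p between 0.671 and 0.786). Across the 36 members, the Pearson correlation between transcript GC content and the difference was -0.86, and over 10803 tested genes with a known GC content it was -0.72; genes of 1 library share its composition and are not independent.

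**Figure D4:**
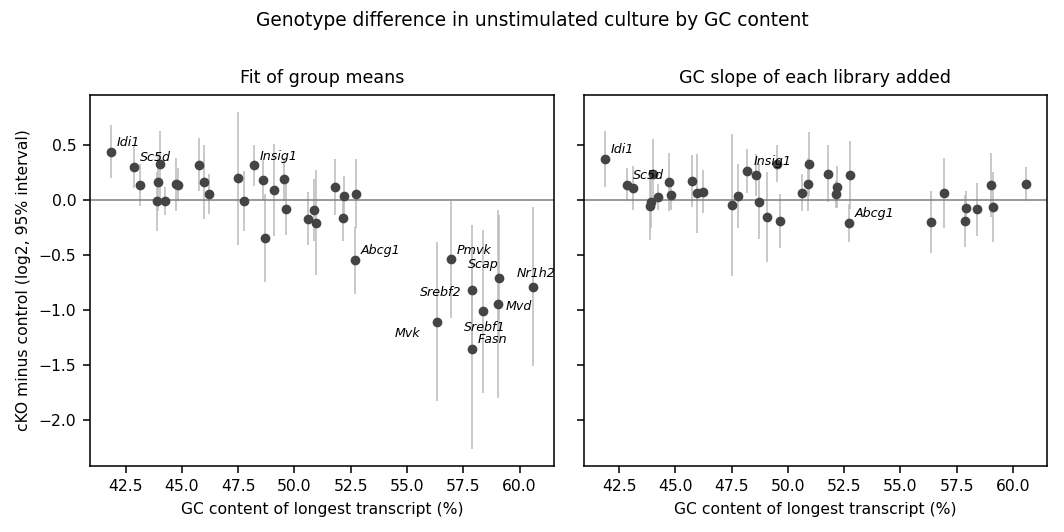
Genotype difference in unstimulated culture (cKO minus control, log2, with 95% interval) of 36 genes against the GC content of the longest transcript, without (left) and with (right) the GC slope of each library in the model. The 8 genes above 55% GC lie between -1.35 and -0.54 on the left and between -0.20 and 0.15 on the right. The slope comes from the same values, so a weaker relation with GC content on the right is built in.

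Within groups the same 8 members had SDs of 0.33 to 0.60 and a median of 0.47, against 0.05 to 0.39 and a median of 0.14 for the other 28. In the fresh cKO libraries Srebf1 had 7.40, 7.18 and 8.93 and Fasn 8.87, 8.26 and 10.22, with replicate 3 the highest of the 3 for each of these genes. The GC slopes of the fresh cKO libraries were -0.19, -0.31 and 0.16.

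In fresh cells the smallest p-values belonged to Sqle, Cyp51, Lbr and Fads1. Sqle, the squalene epoxidase, had 7.65, 7.77 and 7.94 in cKO libraries, against 7.54, 7.47 and 7.43 in control libraries, without overlap. Cyp51 had 8.45, 8.53 and 8.51 in cKO libraries, against 8.26, 8.26 and 8.12 in control libraries, also without overlap. In fresh cells 4 members had separate genotypes, against 4.31% of all tested genes. Their differences were 0.31 ± 0.09 and 0.28 ± 0.09, that of Lbr was 0.15 ± 0.06 and that of Fads1 0.21 ± 0.09. None passed (limma adjusted p = 0.790 for each). In stimulated cells the smallest p-values belonged to Hsd17b7 at 0.33 ± 0.13, Acat2, a thiolase at the head of the mevalonate arm, at 0.26 ± 0.11, Stard4 at -0.19 ± 0.12 and Sqle at 0.13 ± 0.09 (limma adjusted p = 0.974 for each). Hmgcs1, which rose in culture in both genotypes, differed between genotypes by 0.03 in stimulated cells, with a 95% interval of -0.16 to 0.22.

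Averaged over conditions, Sqle differed by 0.21 ± 0.05, cKO minus control, Idi1 by 0.26 ± 0.06, Insig1 by 0.19 ± 0.05 and Cyp51 by 0.14 ± 0.05, and none passed (limma adjusted p between 0.448 and 0.463). Leaving out cKO fresh replicate 3 gave 14 members in unstimulated cells, beside 26.1% of tested genes, 2 in fresh cells, beside 11%, and 12 averaged, beside 14.8%. That library is not in the unstimulated comparison. The differences there were unchanged, as for Idi1 at 0.44, Mvk at -1.10 and Fasn at -1.35, and only the shared estimate of the spread moved. A fit of the 6 unstimulated libraries alone also gave 14, beside 34.4% of tested genes. In the model with the GC slope 0 members passed in any of these comparisons. In unstimulated cells that slope was separate between the genotypes, so this count cannot decide whether members differ between them.

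**Figure D5:**
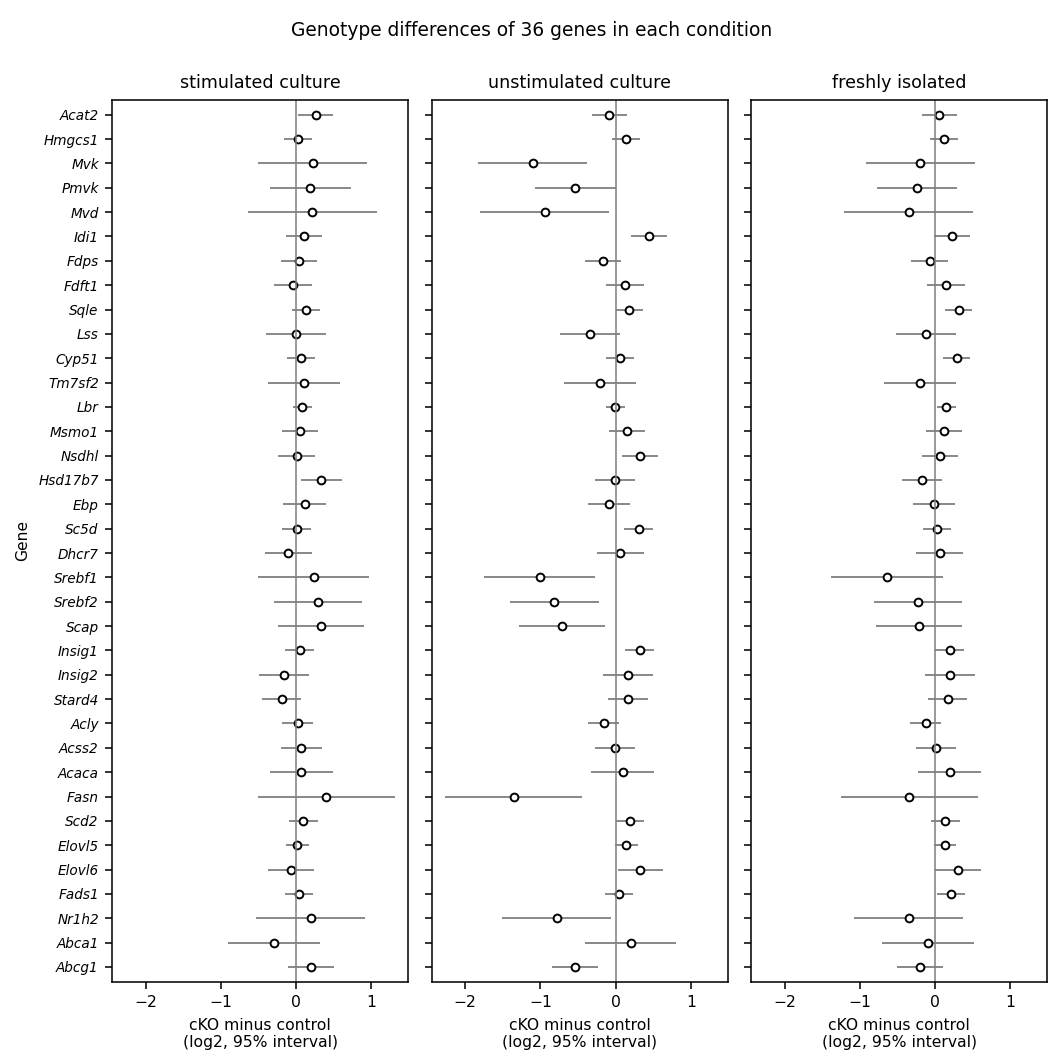
Difference in log2 value, cKO minus control, of each of 36 genes in stimulated culture, unstimulated culture and freshly isolated cells, with 95% intervals from limma; open points did not pass. In unstimulated culture the lowest values, between -1.35 and -0.71, are those of Fasn, Mvk, Srebf1, Mvd, Srebf2, Nr1h2 and Scap.

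Whether the response to stimulation or culture differed between genotypes was tested directly. No member passed, 0 of 36 for stimulation beside 0.00919% of tested genes, and 0 for culture beside 0%. An unadjusted p below 0.05 was seen for 10 members for stimulation, against 28% of all genes, and for 1 for culture, against 5.01%. For stimulation, cKO minus control, the smallest p-values belonged to Abcg1 at 0.74 ± 0.20, Fasn at 1.75 ± 0.61, Srebf2 at 1.10 ± 0.39 and Mvk at 1.32 ± 0.48 (limma adjusted p = 0.166 for each). Median differences of the 8 members of high GC were 1.13 without and 0.07 with the GC slope in the model, which shrinks such differences by construction. For culture they belonged to Sc5d at 0.28 ± 0.13, Mvk at -0.91 ± 0.48, Cyp51 at -0.23 ± 0.12 and Lbr at -0.15 ± 0.09 (limma adjusted p = 0.843 for each). Cyp51, whose rise with stimulation passed in both genotypes, differed in that rise by 0.0041 ± 0.12, with a 95% interval of -0.26 to 0.26. For the stimulation responses, 8 members passed when only the 12 libraries compared were fitted, beside 21.8% of tested genes, and 6 without cKO fresh replicate 3, beside 15.2%. That library is not among the 12, so leaving it out moved the shared estimate of the spread and not the differences.

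Other genes of lipid metabolism were counted in 6 lists outside the 36. With stimulation 0 of their 78 tested genes passed in either genotype. In culture, genes of SREBP processing and sterol sensing gave 2 higher and 0 lower of 11 in cKO cells, and 5 higher and 1 lower in control cells. Sterol uptake, storage and transport gave 2 higher and 1 lower of 13 in each genotype. Oxysterol and LXR partners and targets gave 0 higher and 1 lower of 7 in cKO cells and 1 of each in control cells. Isoprenoid use gave 1 higher and 3 lower of 13 in cKO cells, and 3 of each in control cells. Other fatty acid synthesis and activation gave 3 higher and 2 lower of 16 in cKO cells, and 3 of each in control cells. Fatty acid oxidation gave 3 higher and 1 lower of 18 in cKO cells, and 4 higher and 1 lower in control cells. These shares stand beside the 22.1% and 29% of all tested genes given above.

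Some of these genes are named after their values were seen. Arl4c, an LXR target known from human cells, fell by 0.94 in cKO and 0.83 in control cells (limma adjusted p = 1.30e-07 and 4.67e-07). Rxra of the same list, which encodes the receptor partner of LXR, rose by 0.92 in control cells (0.00988) and differed by 0.55 in cKO cells without passing. Differences in that list were positive for 4 of 7 genes in cKO and 6 of 7 in control cells, so it did not move one way. Mylip, an LXR target whose product marks lipoprotein receptors for degradation, fell by 0.45 and 0.42 in cKO and control cells (0.00159 and 0.00211). Npc1, which moves cholesterol out of lysosomes, rose by 0.36 and 0.33 (0.00576 and 0.00906). Acadm, an acyl-CoA dehydrogenase of fatty acid oxidation, rose by 0.55 in each genotype (3.02e-04 in cKO and 2.46e-04 in control cells). In the same list Etfa fell by 0.39 in cKO cells (0.0418) and Acat1 by 0.34 in control cells (0.0248). Slc25a1, the citrate carrier that supplies Acly, rose by 0.55 in cKO and 0.70 in control cells (0.0333 and 0.00773). Acsl5 of the same list fell by 0.74 in cKO and 0.86 in control cells (0.00873 and 0.00287). Mlx, also of that list, fell by 0.49 and 0.27 (6.05e-04 and 0.0232). Genotype was tested for the same lists in each condition, and 0 genes passed in any of them.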

How the data were processed

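RNA was measured in 18 libraries, grouped by their GEO titles and characteristics. Per the labels' protocols, libraries were made from 10 ng of RNA with the unstranded TruSeq v2 kit, and reads were single-end, 75 bases long. The submitters' processing notes list Partek 6.6, HISAT2 2.1.0, DESeq2, SAMtools 1.4, CASAVA 1.8 and the build mm10, without order or role, and no counting annotation is named. The deposited values are normalized and logarithmic. The log2 base was inferred from them: they spanned -1.36 to 17.2, and their linear sums lay between 6782460 and 7419370 per library. Depth is unknown, so no counting interval is given. Spread was compressed at low levels (median SD 0.0846 below a mean of 0, 0.188 between 6 and 8). No libraries were identical (0 pairs).

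Tests covered 10877 of the 15137 genes (71.9%), those reaching a linear value of 10 in 3 libraries. In R 4.3.3, limma 3.58.1 fitted 6 group means with trended moderation to the log2 values as deposited, with 12 residual degrees of freedom (15.7 in all); 10 two-sided contrasts were adjusted by Benjamini-Hochberg over all tested genes at a threshold of 0.05. No pseudocount was needed on values already logarithmic. The code was tested on simulated data. GENCODE M21 gave transcript length and GC content, and GC content was known for 99.3% of tested genes and for all 36 members. Statistics are given for called members and for the smallest p of each role (stimulation, culture) or the 4 smallest (other contrasts); the 8 members of high GC were added after their values were seen. Alternatives were offsets of 5 and 0.5, no minimum, a minimum of 50, TMM-type scaling (trims of 30% and 5%), quantile normalization, fits of only the groups compared, no trend, a block by run of library numbers, the GC slope, block and slope together, and each library left out. The members and lists were chosen with earlier results of these data known.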

Additional observations from a re-analysis of the deposited data

How the results depend on the processing

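Over 29 settings, the 60 named differences kept their direction and side of the threshold in 1645 cases, were lost in 26, newly passed in 55 and reversed in 10. The cause of these changes was not tested. Reversals with the GC slope alone, or with the replicate block and the GC slope together, were those of Nr1h2 with stimulation in cKO cells (-0.069 and -0.056) and, between genotypes in unstimulated cells, Pmvk (0.069 and 0.21), Mvd (0.14 and 0.079), Nr1h2 (0.15 and 0.13) and, with both together, Scap (0.032). Stard4 in control culture ran between -0.23 and 0.010 with a library left out, the higher value without control unstimulated replicate 3.

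Counts of members called moved as follows. With stimulation in cKO cells the count was 0 with scaling of the TMM type or quantile normalization (beside 0.221% and 0.267% of all tested genes), 13 when only the groups compared were fitted (21.6%), and 0 to 5 with a library left out (0.101% to 3.09%). In control cells it was 4 with quantile normalization (0.561%), 0 with only the groups compared (0.0644%), 5 with the GC slope (2.95%), 4 with the replicate block and GC slope (2.21%), and 0 to 4 with a library left out (0.0368% to 1.14%). Culture in cKO cells gave 2 with only the groups compared (7.46%) and 13 with the GC slope, alone (45.4%) or with the block (46%), and culture in control cells 11 with either (42.9% and 40.6%). For genotype in unstimulated cells the count was 14 with only the groups compared (34.4%), 7 with the replicate block (8.15%) and 0 to 14 with a library left out (0% to 26.1%); in fresh cells it was 0 to 2 (0.00919% to 11%) and averaged 0 to 12 (0.00919% to 14.8%) with a library left out. The 7 under the block were Idi1, Sc5d, Insig1, Abcg1, Mvk, Srebf2 and Fasn (limma adjusted p between 0.0484 and 0.0496). The stimulation response between genotypes gave 8 with only the groups compared (21.8%) and 0 to 6 with a library left out (0.00919% to 15.2%). With 1 library left out, a group has 2 libraries and its spread is assumed to be that of the others.

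Library numbers did not clearly pair the samples. Of 21 correlations between deviations of libraries of the same run, 11 were above 0.1, over a range of -0.63 to 0.65. In 10 of the 21 the correlation was highest with the same run. These mixed values cannot decide whether libraries of a run belong together. The replicate block moved the count past 1.5 times for genotype in unstimulated cells alone among the 10 comparisons. Quantile normalization moved the median of all genes in the stimulation response between genotypes to -0.11, against 0.01. Depth is unknown, and 3 libraries a group limit the precision.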
